A study of Mus musculus with 12 samples.

Results

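Heme is made from glycine and succinyl-CoA by a chain of enzymes that begins in the mitochondrion, passes through the cytosol and ends in the mitochondrion again. ALA synthase opens the chain and ferrochelatase closes it by inserting iron into protoporphyrin. Every respiring cell needs heme for cytochromes, but red cell precursors, which are found in adult mouse spleen as well as in bone marrow, make far more of it for hemoglobin and use their own ALA synthase, *Alas2*, in place of the widely expressed *Alas1*. The genes described here are 8 enzymes of this chain, *Alas1*, *Alas2*, *Alad*, *Uros*, *Urod*, *Cpox*, *Ppox* and *Fech*. They were taken by symbol from tables of 24062 genes, and all 8 had a row and reached a mean of 1 FPKM in both tissues, as did 12397 genes in spleen and 13051 in brain.

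RNA was sequenced from brain and spleen of male C57BL/6 mice aged 10 weeks, 3 Norad-/- and 3 Norad+/+ libraries per tissue. *Norad* encodes a long noncoding RNA that binds PUMILIO proteins, which repress mRNAs carrying the 8-base element UGUANAUA, and Norad-/- mice lack its sequence in every cell because the locus was deleted by genome editing. The labels do not say which of the founder lines each Norad-/- mouse came from, nor whether the brain and spleen libraries share mice. Values are FPKM, which scale the reads of a gene by its length and by the library's mapped reads, so levels of different genes can be set side by side.

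*Norad* stood at or below 0.0173 FPKM in the 6 Norad-/- libraries, against 42.9 to 62.0 FPKM in Norad+/+ spleen and 206 to 635 FPKM in Norad+/+ brain. Estimated depth was 28.4 to 36.7 M reads per library. The tissues carried their own markers, with 7 B cell genes summing to 1786 to 2014 FPKM in Norad-/- spleen and 1560 to 1919 FPKM in Norad+/+ spleen, and 6 neuronal genes to 1768 to 1975 FPKM in Norad-/- brain and 1798 to 2179 FPKM in Norad+/+ brain. Replicate 3 of Norad+/+ stood apart in both tissues, with a median Spearman correlation to its fellows of 0.948 in spleen, where the other libraries had 0.961 to 0.971, and 0.949 in brain, where they had 0.973 to 0.979. It held 80.4 FPKM of the pancreatic gene *Ctrb1* in spleen. In brain, replicate 3 of Norad-/- contained growth hormone mRNA of the pituitary (*Gh*, 984 FPKM).

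In spleen, 7 of the 8 enzymes, all but *Alas1*, had their lowest values in replicates 1 and 2 of Norad-/-, a pattern seen in 16.0% of the 12397 genes. Replicate 3 of Norad-/- lay above replicate 1 of Norad+/+ for 6 of the 8, as it did for 46.3% of the genes. Mean levels in Norad-/- spleen were 26.7% of those in Norad+/+ spleen for *Alas2*, 28.9% for *Fech*, 29.8% for *Cpox* and 32.0% for *Alad*, and 93.6% for *Alas1*. Without replicate 3 of Norad-/-, a setting chosen after the data were seen, they were 11.2% for *Alas2*, 13.4% for *Fech*, 11.9% for *Cpox*, 16.6% for *Alad* and 93.3% for *Alas1*. Other libraries left out brought log2 fold changes nearer to 0, to -1.83 for *Alas2*, -1.69 for *Fech* and -1.59 for *Alad* without replicate 2 of Norad-/-. For *Cpox* it was -1.50 without replicate 3 of Norad+/+. The spread within Norad-/- was wide, and with all libraries kept 0 of the 8 differences passed an adjusted p of 0.05 with limma. In brain replicates 1 and 2 of Norad-/- were the lowest for *Alas1* and *Fech* but not for the other enzymes.

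**Figure D1:**
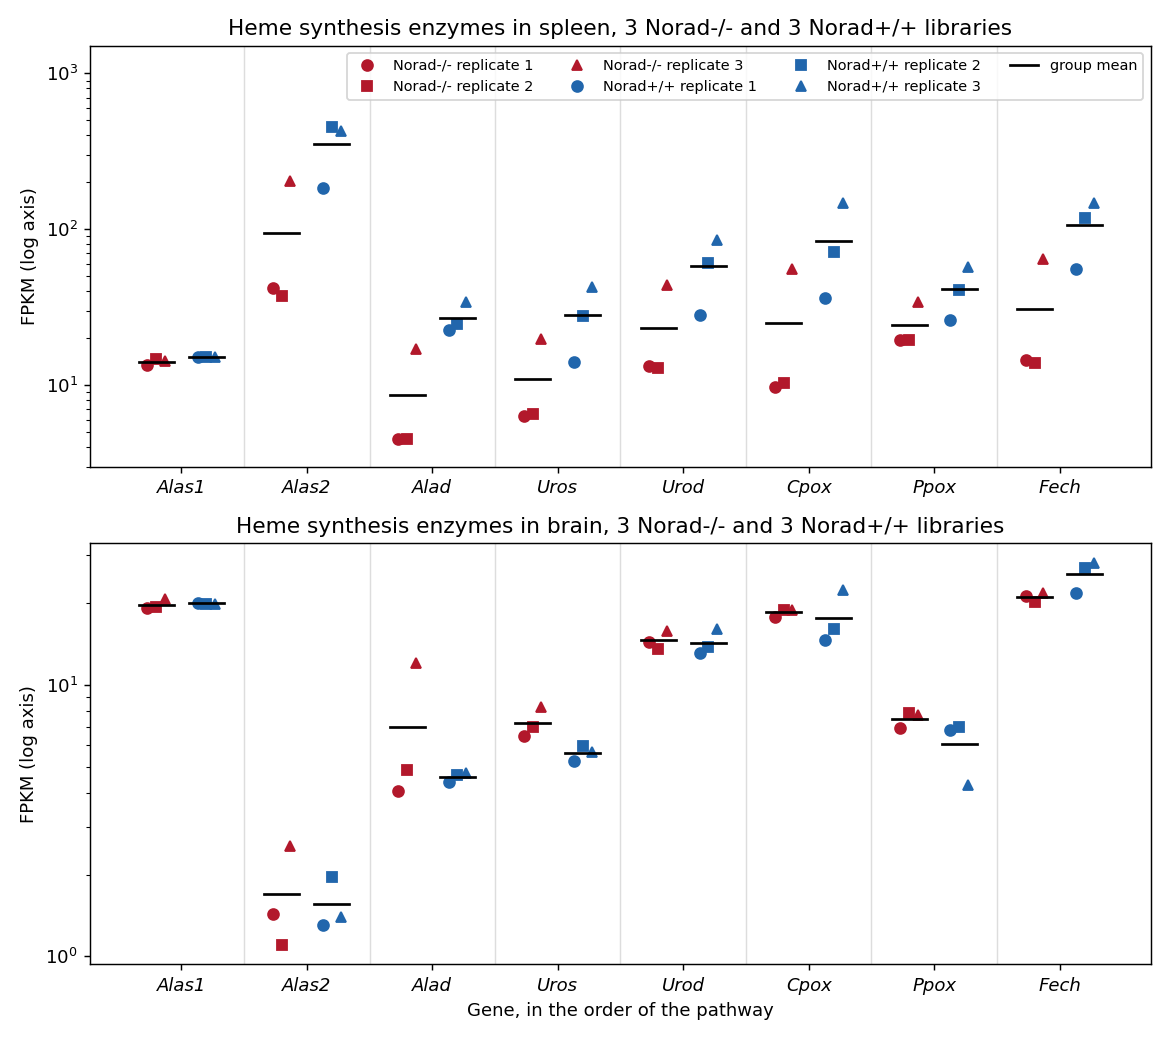
FPKM of the 8 enzymes in each library, spleen above and brain below, on log axes. Red symbols are Norad-/- and blue symbols Norad+/+ libraries, their shape gives the replicate number, and black lines are group means. In spleen the red circle and square lie below all other symbols for every enzyme but *Alas1*, while the red triangle lies among or near the blue symbols. In brain *Alas2* is the lowest of the 8 in every library.

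*Alas1* encodes the ALA synthase found in all tissues, whose expression heme itself represses in liver (GRCm38 chr9:106233455-106248654, minus strand). In spleen it had 13.5, 14.7 and 14.3 FPKM in Norad-/- and 15.1, 15.1 and 15.2 FPKM in Norad+/+. The groups did not overlap, but all 6 values lay within 1.13-fold of each other, and the log2 fold change was -0.10 (SE 0.07, limma adjusted p = 0.467). After rescaling to TPM, which shifted the median of all spleen genes to 0.10, against -0.02 in FPKM, the log2 fold change of *Alas1* was 0.02. In brain it had 19.2, 19.3 and 20.7 FPKM in Norad-/- and 20.1, 19.9 and 19.9 FPKM in Norad+/+, a log2 fold change of -0.02 (SE 0.08, limma adjusted p = 0.956). Its level thus varied least of the 8 in both tissues.

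*Alas2* encodes the red cell ALA synthase, and its loss causes sideroblastic anemia in humans (GRCm38 chrX:150547375-150570638, plus strand). In spleen it had 41.9, 37.5 and 205 FPKM in Norad-/- and 184, 451 and 429 FPKM in Norad+/+. The groups overlapped, since replicate 3 of Norad-/- exceeded replicate 1 of Norad+/+, and the other Norad-/- libraries lay far below all others. The highest value was 12.03 times the lowest. The means were 94.6 ± 95.2 FPKM in Norad-/- and 355 ± 148 FPKM in Norad+/+ (SD, n = 3 each), and the log2 fold change was -2.26 (SE 0.72, 95% interval -4.00 to -0.52, limma adjusted p = 0.189). With 1 spleen library left out it ran from -3.05, without replicate 3 of Norad-/-, to -1.83, without replicate 2 of Norad-/-. In brain *Alas2* had 1.43, 1.10 and 2.56 FPKM in Norad-/- and 1.30, 1.96 and 1.40 FPKM in Norad+/+, a log2 fold change of 0.06 (SE 0.32, limma adjusted p = 0.962). These brain values stand for an estimated 79 to 174 reads per library. Leaving out replicate 3 of Norad-/- brain gave -0.27, and the sign also turned without replicate 1 or 3 of Norad+/+ brain.

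The *Alas2* mRNA is known for an iron-responsive element in its 5′ UTR, a stem-loop by which iron regulatory proteins hold back its translation when iron is scarce. A search of 5′ UTRs for this stem-loop, a CAGUG loop followed by a base other than G between paired arms of 5 bases with a bulged C, found it in *Alas2* alone of the 8 enzymes and in 0.171% of 11087 spleen-expressed genes. It is shown here because it sets *Alas2* apart from its paralog *Alas1*. It is written in RNA letters from bases 84 to 113 of the transcript (GENCODE M21), with the loop in capitals. Element and RNA level are separate readouts, since the values above count mRNA and not its translation.

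Alas2 iron-responsive element: uugguucguccuCAGUGCagggcaacagga

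Upstream of *Alas2* and of *Cpox*, the RefSeq promoter windows each hold 1 match to GATAA, the core of the site bound by GATA1, the master regulator of red cell genes. The windows reach 250 bases before the start of the gene, and both strands were searched, so that the match may read TTATC. The match was present in 22.6% of 32851 such windows, and among the enzymes in the windows of *Alas2*, *Cpox* and 1 of the 2 of *Uros*. The windows of *Alas1*, *Alad*, *Urod* and *Ppox* held none, and *Fech* had no window to search. CACCC or GGGTG, the core of the site of the red cell factor KLF1, was present in windows of *Alas1*, *Alas2*, *Alad* and *Cpox* and in 52.0% of all windows. The 3 matches of *Alas2* lie in the part of its window that GENCODE annotates as first exon, and 0 lie in the stretch printed here. The stretches below, which end before the first exon that GENCODE annotates, are printed 5′ to 3′ from the plus strand of GRCm38.p6, chrX:150547167-150547374 for *Alas2* and chr16:58669958-58670207 for *Cpox*, with the match in capitals, because these are the enzymes with the widest ranges in spleen. A match is a description of letters and not a bound site.

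Alas2 upstream: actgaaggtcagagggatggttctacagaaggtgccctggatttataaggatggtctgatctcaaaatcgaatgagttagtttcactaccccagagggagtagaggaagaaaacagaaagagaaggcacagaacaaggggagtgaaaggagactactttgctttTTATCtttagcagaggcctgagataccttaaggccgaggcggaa

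Cpox upstream: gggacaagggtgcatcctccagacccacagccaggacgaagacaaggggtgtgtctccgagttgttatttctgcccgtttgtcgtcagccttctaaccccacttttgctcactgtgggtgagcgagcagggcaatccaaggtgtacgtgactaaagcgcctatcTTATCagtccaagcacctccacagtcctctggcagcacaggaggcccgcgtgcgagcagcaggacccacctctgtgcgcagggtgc

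The ratio of the red cell to the general ALA synthase mRNA separated the tissues. *Alas2* was 3.10, 2.54 and 14.3 times *Alas1* in Norad-/- spleen, against 12.2, 29.8 and 28.2 times in Norad+/+ spleen. In brain the ratio was 0.0749, 0.0570 and 0.123 in Norad-/- and 0.0650, 0.0985 and 0.0702 in Norad+/+. It thus lay above 1 in every spleen library and below 1 in every brain library, and within each tissue the genotypes overlapped.

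*Alad* encodes ALA dehydratase, the cytosolic enzyme that joins ALA molecules into porphobilinogen and is inhibited by lead (GRCm38 chr4:62509169-62519918, minus strand). It had 4.53, 4.50 and 17.05 FPKM in Norad-/- spleen and 22.5, 24.8 and 34.2 FPKM in Norad+/+ spleen. *Alad* and *Alas1* were the enzymes whose spleen groups did not overlap, 2 of 8, where 14.9% of the 12397 genes lay lower in Norad-/- without overlap. The means of *Alad* were 8.69 ± 7.24 FPKM in Norad-/- and 27.2 ± 6.24 FPKM in Norad+/+ (SD, n = 3 each), a log2 fold change of -1.91 (SE 0.53, 95% interval -3.19 to -0.62, limma adjusted p = 0.177). In brain it had 4.08, 4.85 and 12 FPKM in Norad-/- and 4.40, 4.64 and 4.73 FPKM in Norad+/+, a log2 fold change of 0.43 (SE 0.39, limma adjusted p = 0.777). The higher mean rests on 1 library, replicate 3 of Norad-/- brain, and without it the log2 fold change was -0.04. That library is the one with 984 FPKM of *Gh*, and its red cell markers summed to 306.7 FPKM, against at most 235.5 FPKM in Norad+/+ brain. Of that sum the beta globin gene *Hbb-b1* made 86.1 FPKM, while the marker *Sptb* stood at 18.5 FPKM, its lowest brain value. The part of pituitary or red cell RNA in the *Alad* value was not tested.

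*Uros* encodes uroporphyrinogen III synthase, which closes the ring of the porphyrin (GRCm38 chr7:133686243-133710072, minus strand). It had 6.32, 6.53 and 19.9 FPKM in Norad-/- spleen and 14.2, 27.7 and 42.5 FPKM in Norad+/+ spleen, groups that overlapped. The log2 fold change was -1.44 (SE 0.57, limma adjusted p = 0.227). In brain, by contrast, it had 6.49, 7.01 and 8.29 FPKM in Norad-/- and 5.25, 5.97 and 5.67 FPKM in Norad+/+. All 3 Norad-/- values exceeded all 3 Norad+/+ values, the single enzyme of 8 to do so in brain, where 10.6% of the 13051 genes did. A count of 1 of 8 is near that share. The means were 7.26 ± 0.926 FPKM in Norad-/- and 5.63 ± 0.360 FPKM in Norad+/+ (SD, n = 3 each), a log2 fold change of 0.36 (SE 0.12, limma adjusted p = 0.710). *Uros* overlaps *Bccip* on the other strand.

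*Urod* encodes uroporphyrinogen decarboxylase, which trims the side chains of that ring (GRCm38 chr4:116989965-116994413, minus strand). It had 13.2, 12.9 and 44.1 FPKM in Norad-/- spleen and 28.2, 60.5 and 85.7 FPKM in Norad+/+ spleen, a log2 fold change of -1.42 (SE 0.60, limma adjusted p = 0.246). Its profile over the spleen libraries was closest to that of *Uros*. Replicate 3 of Norad-/- lay between replicates 1 and 2 of Norad+/+ for both. In brain *Urod* had 14.3, 13.5 and 15.8 FPKM in Norad-/- and 13.1, 13.7 and 16.0 FPKM in Norad+/+, a log2 fold change of 0.03 (SE 0.12, limma adjusted p = 0.938), which turned to -0.03 without replicate 3 of Norad-/- brain and without replicate 1 of Norad+/+ brain.

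*Cpox* encodes coproporphyrinogen oxidase, which brings the pathway back to the mitochondrion (GRCm38 chr16:58670292-58717636, plus strand). In spleen it had 9.80, 10.3 and 55.5 FPKM in Norad-/- and 36.2, 71.0 and 147 FPKM in Norad+/+. No other enzyme spanned a wider range there, with the highest library 15.0 times the lowest, and replicate 3 of Norad+/+ alone was 4.06 times replicate 1. Replicate 3 of Norad+/+ had the highest spleen value of every enzyme but *Alas2*. It is also the library with 56.8 FPKM of the liver gene *Alb* and 80.4 FPKM of *Ctrb1*, and the part of other tissue in its values was not tested. The log2 fold change was -2.02 (SE 0.81, 95% interval -3.97 to -0.06, limma adjusted p = 0.230), and with 1 spleen library left out it ran from -2.83, without replicate 3 of Norad-/-, to -1.50, without replicate 3 of Norad+/+. In brain it had 17.7, 18.9 and 18.9 FPKM in Norad-/- and 14.6, 16.0 and 22.4 FPKM in Norad+/+, a log2 fold change of 0.09 (SE 0.17, limma adjusted p = 0.887), with a sign that turned without replicate 1 of Norad+/+ brain (-0.04).

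*Cpox* is one of 2 enzymes, with *Fech*, whose longest 3′ UTR carries UGUANAUA, the PUMILIO response element, 1 copy each. Such an element was present in 25.9% of 11242 spleen-expressed genes. With the last base left free (UGUANAUN) *Uros* joined them with 1 match and *Fech* had 4, and 47.3% of genes had a match. The 3′ UTRs of *Ppox*, *Alad* and *Alas2*, of 65, 80 and 147 bases, held neither form, nor did those of *Alas1* and *Urod*. The 2 sites outside *Fech* are shown because these elements are what PUMILIO proteins bind, with the element in capitals and up to 30 bases in all, at bases 293 to 322 after the stop codon in *Cpox* and 284 to 313 in *Uros*. Log2 fold changes of the enzymes with a match were -2.02 in spleen and 0.09 in brain for *Cpox*, -2.06 and -0.27 for *Fech* and -1.44 and 0.36 for *Uros*. For those with neither form they were -2.26 and 0.06 (*Alas2*), -1.91 and 0.43 (*Alad*) and -1.42 and 0.03 (*Urod*). *Ppox* had -0.74 and 0.34 and *Alas1* -0.10 and -0.02. The part of the element in these values was not tested.

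Cpox 3′ UTR site: agauaagggaaUGUAAAUAcuaugauaggu

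Uros 3′ UTR site: ucuugucugcaUGUACAUCugugugcccug

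*Ppox* encodes protoporphyrinogen oxidase of the inner mitochondrial membrane (GRCm38 chr1:171275990-171281186, minus strand). It had 19.4, 19.6 and 33.9 FPKM in Norad-/- spleen and 26.0, 40.6 and 57.3 FPKM in Norad+/+ spleen. Its log2 fold change of -0.74 (SE 0.34, limma adjusted p = 0.274) was the nearest to 0 after that of *Alas1*. In brain it had 6.92, 7.86 and 7.73 FPKM in Norad-/- and 6.81, 6.99 and 4.29 FPKM in Norad+/+, a log2 fold change of 0.34 (SE 0.20, limma adjusted p = 0.718). The low value was replicate 3 of Norad+/+ brain, and without it the log2 fold change was 0.12. *Ppox* overlaps *B4galt3* on the other strand, as *Alas1* does *4930500F10Rik*, *Alas2* does *Apex2* and *Mir3620*, and *Cpox* does *Gpr15*.

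*Fech* encodes ferrochelatase, the iron-inserting enzyme that ends the pathway (GRCm38 chr18:64452914-64490251, minus strand). In spleen it had 14.6, 13.9 and 64.2 FPKM in Norad-/- and 55.9, 118 and 147 FPKM in Norad+/+. As for *Alas2*, replicate 3 of Norad-/- slightly exceeded replicate 1 of Norad+/+. The means were 30.9 ± 28.8 FPKM in Norad-/- and 107 ± 46.5 FPKM in Norad+/+ (SD, n = 3 each), a log2 fold change of -2.06 (SE 0.67, 95% interval -3.69 to -0.44, limma adjusted p = 0.192). Leaving out replicate 3 of Norad-/- spleen gave -2.79. In brain *Fech* had 21.3, 20.2 and 21.8 FPKM in Norad-/- and 21.7, 26.9 and 28.2 FPKM in Norad+/+, a log2 fold change of -0.27 (SE 0.12, limma adjusted p = 0.718). Replicate 1 of Norad+/+ brain lay within the Norad-/- values. *Fech* had the lowest log2 fold change of the 8 in brain, and in both tissues it was negative, as was that of *Alas1* (-0.10 in spleen and -0.02 in brain).

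Counted over the 8 enzymes in spleen, 0 passed an adjusted p of 0.05 with limma, where 4 of 12397 genes did (0.0323%). At an unadjusted p under 0.05, 5 were lower (*Alas2*, *Alad*, *Uros*, *Cpox* and *Fech*) and 0 higher, where 13.6% of all genes were lower. All 8 log2 fold changes were below 0, as were 53.8% of all genes, and their median was -1.67, against -0.02 over all genes. Without replicate 3 of Norad-/- spleen, 1 enzyme passed, *Alad* (log2 fold change -2.54, limma adjusted p = 0.0451), and 93 genes did. The number at an unadjusted p under 0.05 was 7 without that library or without replicate 1 of Norad+/+, where 13.0% and 19.3% of all genes were lower. It was 1 (*Alad*) without any other single spleen library, where 6.58% to 7.91% of all genes were, a share that 1 of 8 is near. In brain 0 of 8 passed, where 2 of 13051 genes did (0.0153%). There, 1 enzyme (*Uros*) was higher at an unadjusted p of 0.0234 in limma, where 3.73% of genes were higher under 0.05, and it missed that level without replicate 2 or 3 of Norad-/- brain or replicate 1 of Norad+/+ brain. *Fech* was lower at that level without replicate 1 of Norad+/+ brain, and *Cpox* higher without replicate 3 of Norad+/+ brain. The median of the 8 in brain was 0.07, against 0.02 over all genes.

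The genotype difference itself was compared between tissues as spleen minus brain. By that test 0 of 8 enzymes passed an adjusted p of 0.05 with limma, as did 0 of 14967 genes (0.0%). At an unadjusted p under 0.05, 6 were lower in spleen than in brain, where 10.7% of genes were. *Alad* had the most negative value, -2.34 (SE 0.71, limma adjusted p = 0.239), followed by *Alas2* at -2.32 (SE 0.85, limma adjusted p = 0.266). *Alas1* had -0.08 (95% interval -0.30 to 0.14), and the median of the 8 was -1.79, against -0.08 over all genes. Without replicate 3 of Norad-/- spleen, 5 enzymes passed (*Alas2*, *Alad*, *Uros*, *Cpox* and *Fech*, log2 values -2.33 to -3.11, limma adjusted p = 0.0260 to 0.0435), as did 344 genes. The number at an unadjusted p under 0.05 was 2 to 4 without any one of replicates 1 and 2 of Norad-/- spleen, replicates 2 and 3 of Norad+/+ spleen, the 3 Norad-/- brain libraries, or replicates 1 and 2 of Norad+/+ brain, where 7.13% to 11.1% of all genes were lower. Brain and spleen values were treated as independent.

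**Figure D2:**
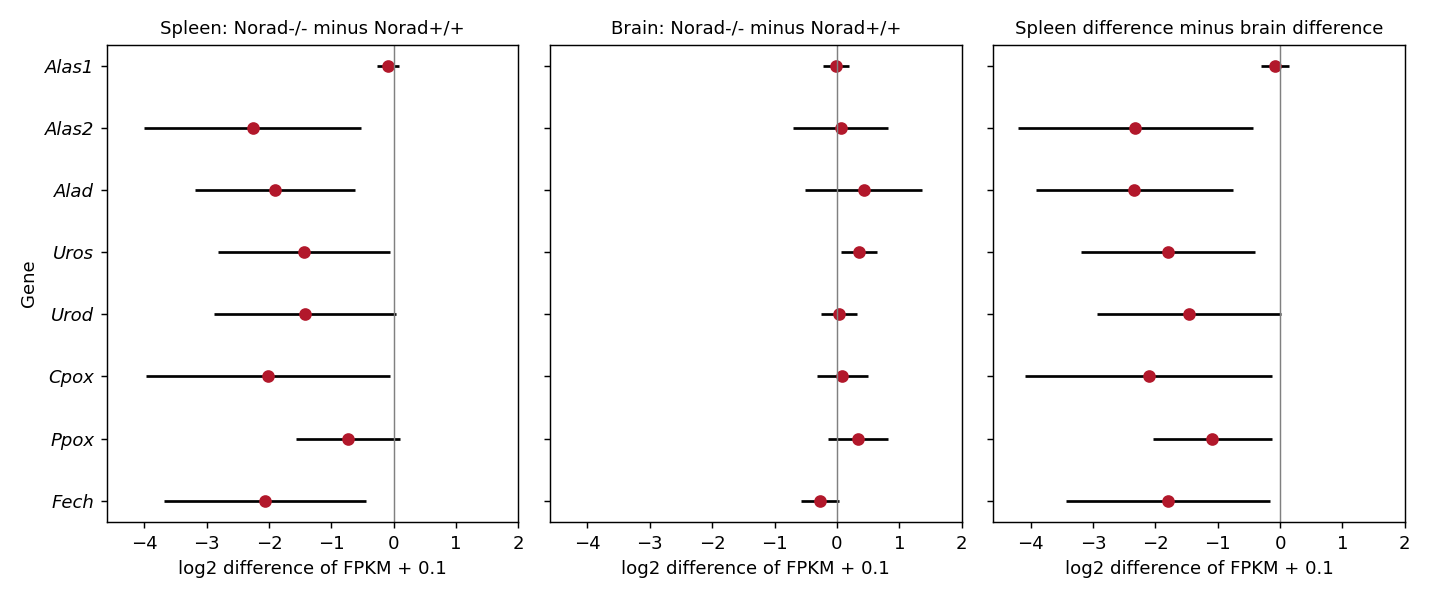
Log2 difference of FPKM + 0.1 for each enzyme (points) with its 95% interval (lines), not adjusted for the number of genes. The left panel gives Norad-/- minus Norad+/+ in spleen, the middle panel the same in brain and the right panel the spleen difference minus the brain difference. In spleen the points of 7 enzymes lie between -2.26 and -0.74 with wide intervals, while *Alas1* lies at -0.10 with a narrow one, and in brain the points lie between -0.27 and 0.43.

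Red cell precursors are the cells richest in this pathway, and their markers varied over the same spleen libraries. The mean log2(FPKM + 0.1) of 23 markers was 2.33, 1.82 and 6.33 in Norad-/- spleen, against 5.73, 7.13 and 7.54 in Norad+/+ spleen. Replicate 3 of Norad-/- lay between replicates 1 and 2 of Norad+/+, as it did for *Alas2*, *Uros*, *Urod*, *Cpox*, *Ppox* and *Fech*. Of the 23 markers 0 passed an adjusted p of 0.05 with limma. At an unadjusted p under 0.05, 21 were lower, where 13.6% of all genes were. All 23 log2 fold changes were below 0, as were 53.8% of all genes, and the marker median was -3.65. The marker FPKM summed to 3252 to 15710 in Norad-/- spleen and 9752 to 26240 in Norad+/+ spleen, and no marker was listed at 0 in any spleen library. At the low end stood *Epb4.2*, a membrane skeleton protein (log2 fold change -4.47), and *Rhag*, an Rh-associated membrane protein (-4.33). At the high end stood the alpha globin genes *Hba-a1* and *Hba-a2* (both -1.25), near-identical copies between which reads can be split. In bulk tissue, fewer cells of a type and less RNA per cell cannot be told apart.

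The marker mean itself differed by -3.31 between Norad-/- and Norad+/+ spleen on the log2 scale. A gene that fell less than the markers, or did not fall, therefore comes out higher when set against them. Set against the marker mean of the same library, every enzyme was higher in Norad-/- spleen, which is not a rise of its own level. The difference was 1.04 for *Alas2*, 1.24 for *Fech*, 1.29 for *Cpox* and 1.40 for *Alad*, and up to 3.21 for *Alas1*, on the log2 scale. With 1 spleen library left out it ran from 0.64 to 1.68 for *Alas2*, 0.78 to 1.94 for *Fech*, 0.84 to 1.89 for *Cpox* and 0.88 to 2.19 for *Alad*, lowest without replicate 2 and highest without replicate 3 of Norad-/-. With a pseudocount of 1 it was 0.58 for *Alas2* and 0.81 for *Fech*. For *Alas2* the level minus the marker mean was 3.06, 3.41 and 1.35 in Norad-/- and 1.79, 1.69 and 1.21 in Norad+/+. Replicate 3 of Norad-/- thus lay within the Norad+/+ values, as it did for every enzyme but *Urod*, and the higher means rest on replicates 1 and 2. With 3 against 3 libraries the exact permutation test cannot go below 0.1, and its two-sided p was 0.1 for *Urod*, 0.3 for *Alas2* and *Fech* and 0.2 for the others. The part of the red cell precursors in the enzyme differences was not tested.

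**Figure D3:**
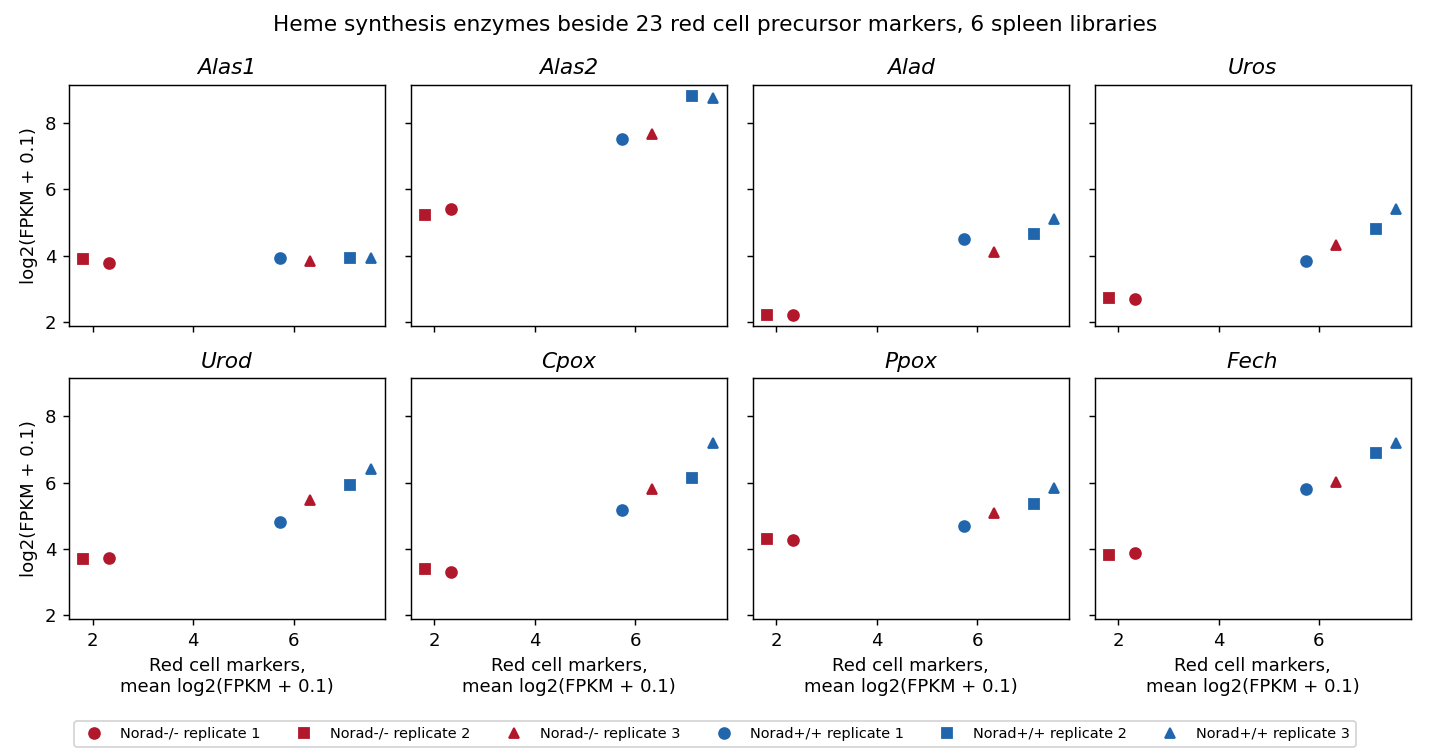
Each panel is 1 enzyme, with its log2(FPKM + 0.1) on the vertical axis and the mean log2(FPKM + 0.1) of 23 red cell precursor markers on the horizontal axis, 1 symbol per spleen library (red Norad-/-, blue Norad+/+, shape by replicate number). Replicates 1 and 2 of Norad-/- lie at marker means of 2.33 and 1.82, and the other 4 libraries at 5.73 to 7.54. All enzymes but *Alas1* are lowest in those 2 libraries, and *Alas1* stays between 13.5 and 15.2 FPKM.

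Markers of other spleen cells also differed among these libraries. All 10 markers of proliferating cells had log2 fold changes below 0 (median -1.47), with sums of 76.0 to 259.5 FPKM in Norad-/- spleen and 191.5 to 539.8 FPKM in Norad+/+ spleen. They ran from -1.82 for *Mki67*, the Ki-67 antigen, to -1.09 for *Aurkb*, the Aurora B kinase, and 9 were lower at an unadjusted p under 0.05. Red pulp macrophages, which break down heme from old red cells, had 8 of 8 markers below 0 (median -0.50) and 5 lower at an unadjusted p under 0.05. In each of these lists 0 genes passed an adjusted p with limma, and none was at 0 in all spleen libraries. Over all genes in spleen, 53.8% lay below 0 and 13.6% were lower at an unadjusted p under 0.05.

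The enzymes also differed among themselves in which genes shared their profile. Profiles were compared as the root mean square difference of centred log2(FPKM + 0.1) over the 6 spleen libraries, as a description over few points that share the same mice. Among the enzymes, *Uros* and *Urod* were nearest to each other (0.07), then *Alas2* and *Fech* (0.17), and *Alas1* and *Alas2* were farthest apart (1.40). Of 12389 other genes, those nearest to *Uros* were *Prc1* (0.06), *Spag5* (0.07) and *Tpx2* (0.07), all of which act on the mitotic spindle. *Urod* was nearest to *Ache*, the acetylcholinesterase also found on red cells (0.07), *Tpx2* (0.08) and *Ptdss2*, a phosphatidylserine synthase (0.08). Nearest to *Fech* were *Dyrk3*, a kinase (0.08), *C530008M17Rik* (0.08) and *Steap3*, the ferrireductase of red cell iron uptake (0.10).

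The genes with profiles most like *Alas2* had low levels. At such levels the 0.1 FPKM added before the log narrows a gene's range, and no other pseudocount was tried for these distances. *C530008M17Rik* lay nearest (0.14), followed by *Dyrk3* (0.16) and *Prss50*, a serine protease (0.16), which had 0.162, 0.117 and 1.03 FPKM in Norad-/- spleen, against 1.12, 2.16 and 2.88 FPKM in Norad+/+ spleen. *Cpox* was nearest to *Rrm2*, a subunit of ribonucleotide reductase (0.14), *Sh3tc2* (0.17) and *Fam109b* (0.17). *Alad* had more distant neighbours, *Gclm*, the modifier subunit of glutathione synthesis (0.21), *Cdkn3*, a cell cycle phosphatase (0.25), and *Mir8116* (0.26).

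Each enzyme had its own level in each tissue. In Norad+/+ mice *Alas2* averaged 355 FPKM in spleen and 1.55 FPKM in brain, a ratio of 228. The ratio of spleen to brain was 6.85 for *Ppox*, 5.92 for *Alad*, 5.0 for *Uros*, 4.79 for *Cpox*, 4.17 for *Fech* and 4.08 for *Urod*. *Alas1* alone was lower in spleen, at 0.759 of its brain level, and for all 8 the Norad+/+ ranges of the tissues did not overlap. In Norad-/- mice the ratio was 55.8 for *Alas2*, 3.24 for *Ppox*, 1.25 to 1.61 for the other enzymes above and 0.718 for *Alas1*. Without replicate 3 of Norad-/- spleen, a setting chosen after the data were seen, it was 23.4 for *Alas2* and 2.6 for *Ppox*, and it lay below 1 for *Uros* (0.885), *Urod* (0.895), *Fech* (0.676), *Alad* (0.647) and *Cpox* (0.544). The tissues come from separate tables, so these ratios carry no test.

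The order of levels within a library showed the same contrast. *Alas2* was the highest of the 8 in all 6 spleen libraries and the lowest in all 6 brain libraries, where *Fech* was the highest. Below *Alas2*, *Fech* and *Cpox* came next in 4 spleen libraries, whereas *Ppox* came second in replicates 1 and 2 of Norad-/-. *Alad* was the lowest in those 2 libraries and *Alas1* in 3 of the other 4. In Norad+/+ spleen neighbours in this order overlapped throughout from *Fech* (107 ± 46.5 FPKM) through *Cpox*, *Urod*, *Ppox* and *Uros* down to *Alad* (27.2 ± 6.24 FPKM, SD, n = 3 each), with *Alas2* above all of them. *Alas1* lay below *Alad* without overlap but overlapped *Uros*, which had 14.2 FPKM in replicate 1 against 15.1 FPKM of *Alas1*. In Norad+/+ brain *Alas1* and *Cpox* overlapped (19.96 ± 0.111 and 17.7 ± 4.13 FPKM, SD, n = 3 each), as did *Cpox* and *Urod* (14.3 ± 1.53 FPKM, SD, n = 3) and *Ppox* and *Uros* (6.03 ± 1.51 and 5.63 ± 0.360 FPKM, SD, n = 3 each).

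Genes that regulate or supply the enzymes were read from lists chosen for this pathway. In spleen 0 genes of these lists passed an adjusted p of 0.05 with limma. Over all genes there, 53.8% lay below 0 and 13.6% were lower at an unadjusted p under 0.05. Of 9 regulators and partners, 8 lay below 0 (median -0.27), and *Gata1*, which switches on red cell genes including *Alas2*, had 2.10, 2.44 and 27.0 FPKM in Norad-/- and 14.6, 38.4 and 53.7 FPKM in Norad+/+ (log2 fold change -2.55). *Nfe2*, another red cell transcription factor, had -2.43. *Clpx*, a mitochondrial unfoldase that activates ALA synthase, had -0.10, and *Hif1a*, the hypoxia factor, 0.29. At an unadjusted p under 0.05, 3 of the 9 were lower and 1 was higher. The share of all genes higher at that level in spleen was not counted, here or for the lists below.

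Mitochondrial carriers move the substrates and products of the pathway across the membrane. Of 9, 8 lay below 0 with a median of -0.93, and 4 were lower and 1 higher at an unadjusted p under 0.05. *Abcb10*, an inner membrane transporter that binds ferrochelatase and mitoferrin, had 4.27, 4.09 and 17.3 FPKM in Norad-/- spleen and 13.6, 27.5 and 41.2 FPKM in Norad+/+ spleen (log2 fold change -1.88). *Abcb6*, a porphyrin transporter, had -1.49. *Slc25a28*, the mitoferrin of non-erythroid tissues, had 0.23. For the supply of succinyl-CoA and glycine, 7 of 7 genes lay below 0, with a median of -0.15 and 2 lower at an unadjusted p under 0.05, between *Dlst* of the oxoglutarate dehydrogenase complex (-0.30) and *Suclg1* of succinyl-CoA ligase (-0.04). The shares over all genes in spleen were 53.8% below 0 and 13.6% lower at that level.

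Genes of iron handling were read in the same way. Of 9 iron uptake genes, 8 lay below 0 (median -0.61) and 5 were lower at an unadjusted p under 0.05. *Tfr2*, a transferrin receptor of liver and red cell precursors, had 0.234, 0.252 and 2.23 FPKM in Norad-/- and 2.16, 5.05 and 7.84 FPKM in Norad+/+ spleen (log2 fold change -2.80). *Steap3* had -2.05, *Pcbp2*, an iron chaperone, -0.07, and the zinc and iron carrier *Slc39a14* 0.28. Of 14 iron-sulfur cluster genes, 13 lay below 0 (median -0.19), led by *Glrx5* (-1.54) and *Isca1* (-1.26), while *Hspa9* (-0.02) and *Fdxr* (0.02) lay at 0. At an unadjusted p under 0.05, 3 of the 14 were lower. Of all genes in spleen, 13.6% were lower at that level and 53.8% lay below 0.

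On the side of heme use and breakdown, 9 of 11 genes lay below 0 (median -0.58) and 5 were lower at an unadjusted p under 0.05. *Blvrb*, a reductase abundant in red cells, had -1.51, while *Hmox2*, the constitutive heme oxygenase, had 0.07 and the heme exporter gene *Mfsd7b* (*Flvcr1*) 0.14. The lowest of the list, *Hpx*, a plasma protein made by liver, had 18.0 FPKM in replicate 3 of Norad+/+ spleen alone and at most 0.226 FPKM in the other 5. The same library held 56.8 FPKM of *Alb*, the liver's albumin, and the part of liver RNA was not tested. Of 10 heme-using proteins outside red cells, 7 lay below 0 (median -0.33), with *Mpo*, the neutrophil peroxidase, at -1.97, *Hebp1*, a heme-binding protein, at -1.25, *Cyb5b* at 0.11 and *Cygb*, cytoglobin, at 0.48. In this last list 2 were lower and 1 higher at an unadjusted p under 0.05. Over all genes in spleen 13.6% were lower at that level and 53.8% lay below 0, shares near the counts of this last list.

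In brain none of the genes in these lists reached an unadjusted p of 0.05 in either direction, and 0 passed an adjusted p with limma. List medians there ran from -0.05 for regulators and partners to 0.18 for the mitochondrial carriers, against 0.02 over all genes. *Tmem14c*, which carries protoporphyrinogen IX across the inner membrane in red cell precursors, had the highest value of the carriers (0.46), with 12.7, 14.1 and 14.4 FPKM in Norad-/- and 13.7, 13.4 and 5.40 FPKM in Norad+/+. The low library was again replicate 3 of Norad+/+ brain. Of the red cell markers, 8 of 23 passed the filter in brain, with a median of 0.05. Below 0 lay 2 of the 8, *Epor* and *Sptb* (both -0.18), and *Sptb* was lowest in replicate 3 of Norad-/- (18.5 FPKM). *Hbb-b1*, a beta globin gene, had 41.2, 36.2 and 86.1 FPKM in Norad-/- and 33.8, 38.2 and 34.4 FPKM in Norad+/+. The library with the highest *Hbb-b1* was also the one with the highest *Alas2* and *Alad*, and the part of blood in these values was not tested.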

How the data were processed

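FPKM tables of brain and spleen, 3 Norad-/- and 3 Norad+/+ mice each, were analysed. FPKM were made by the authors with StringTie 1.2.2 from reads filtered with NGS QC Toolkit 2.3.3 and aligned to GRCm38 with TopHat2 2.0.12, uniquely mapped reads kept. Libraries were stranded, poly(A)-selected single reads. Whether quantification used strand is not given in the sources used here, so genes on opposite strands may share reads. Depth was estimated from the FPKM of 1 read, and 0 value columns belonged to no sample.

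Genes averaging 1 FPKM or more over a tissue's libraries were compared on log2(FPKM + 0.1), which understates changes of low genes, with limma 3.58.1 (variance trend, R 4.3.3), Benjamini-Hochberg adjustment over all genes fitted and a threshold of 0.05. The tissue comparison used genes reaching 1 FPKM in either tissue. Exact permutation tests were two-sided over 20 splits. The limma comparisons, but not the other steps, were tested on simulated data. The study tested counts, which were not used here. Each library is 1 mouse. The members and gene lists were chosen with earlier results of these data known. Named genes are the 8 enzymes, the 2 lowest and 2 highest of each list described, and the 3 spleen genes nearest to each enzyme that spans over 2 on the log2 scale. A gene that is withheld is not named here. List symbols matched for 179 of 182 genes. Motifs were sought in RefSeq promoter windows (GRCm38.p6) and GENCODE M21 transcripts. Genotype and tissue differences were also computed with other pseudocounts and filters on low values, as TPM, after quantile normalization, with other variance settings, with the replicate number as a block and without each library, and levels relative to red cell markers with other pseudocounts and without each spleen library. Tables and figures were made with Python 3.11.15, pandas 2.3.3, numpy 2.4.6 and matplotlib 3.10.9.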

Additional observations from a re-analysis of the deposited data

How the results depend on the processing

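The count of enzymes past the threshold was 0 in spleen, in brain and for the difference between tissues under every alternative tried that kept all libraries, with other pseudocounts, filters, scalings and variance models. With 1 library left out it ran from 0 to 1 in spleen (1 without Norad-/- spleen replicate 3) and from 0 to 5 for the difference between tissues (5 without that library), and was 0 throughout in brain. For single enzymes without that library, the difference between tissues was -3.11 for *Alas2*, -2.97 for *Alad*, -2.33 for *Uros*, -2.92 for *Cpox* and -2.52 for *Fech*. With values as TPM, *Alas1* changed sign, to 0.024 in spleen, 0.013 in brain and 0.011 for the difference between tissues. TPM rescales all values of a library by the same factor, and the median over all genes also rose, from -0.022 to 0.098 in spleen and from 0.024 to 0.055 in brain. No other enzyme changed sign in spleen or in the difference between tissues. In brain, leaving out single libraries, values ran from -0.054 to 0.003 for *Alas1*, -0.265 to 0.308 for *Alas2*, -0.043 to 0.724 for *Alad*, -0.029 to 0.118 for *Urod* and -0.035 to 0.269 for *Cpox*, while *Uros*, *Ppox* and *Fech* kept their sign. Levels relative to the red cell markers kept their sign with other pseudocounts and without each spleen library, the alternatives run for them, in a design that cannot pass 0.05. Same-numbered libraries did not deviate together in every pair (correlations of 0.338, -0.147 and 0.290 in spleen and 0.061, 0.068 and 0.110 in brain), so the numbers were not taken as pairs. With a replicate block 0 enzymes passed in spleen, in brain and for the difference between tissues, and over all genes 1 passed in spleen against 4 without the block and 1 in brain against 2. For all enzymes but *Alas1* the limma adjusted p in spleen was 0.0617 to 0.0884 with the block, against 0.177 to 0.274 without it. At an unadjusted p under 0.05, 7 enzymes were lower in spleen with the block, where 15.6% of all genes were. Without it 5 were, where 13.6% of all genes were. At this depth *Alas2* in brain rests on few reads.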

Other observations

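Lymphocyte markers lay on the other side of 0 from the enzymes in spleen. All 6 T cell markers were higher in Norad-/- spleen at an unadjusted p under 0.05, with a median log2 fold change of 0.60 and sums of 349.3 to 419.7 FPKM in Norad-/- and 237.0 to 281.6 FPKM in Norad+/+. The share of all genes higher at that level in spleen was not counted. The 7 B cell markers all lay above 0 (median 0.15), and 2 of them were higher at an unadjusted p under 0.05. Neutrophil genes lay below 0, 8 of 8, where 53.8% of all genes in spleen did. The neutrophil median was -1.97, with sums of 167.1 to 1536 FPKM in Norad-/- and 854.8 to 2482 FPKM in Norad+/+. With limma 0 genes of these lists passed an adjusted p of 0.05.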
